A study of Caenorhabditis elegans with 2 samples.

Results

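MicroRNA gene loci were examined for binding of GMEB-1 in *Caenorhabditis elegans* larvae. They were all 261 nuclear genes that Ensembl release 115 classes as miRNA, of 46890 nuclear genes in all. A locus was called marked when the summit of a reproducible GMEB-1 region lay upstream of its annotated 5′ end, within windows of 200, 500 and 1000 bp on the strand of the miRNA. ChIP-seq, which sequences the DNA bound to a precipitated protein, was done against eGFP-tagged GMEB-1 in whole animals of both sexes at the L2 larval stage. The only group had 2 biological replicates of strain OP343, genotype unc-119(ed3) III with the integrated transgene wgIs343. All animals carried both the unc-119 allele and the transgene, and no untagged strain or other stage was analysed here. Whether the tagged protein replaced the endogenous one is not given in the sources used here, and whole animals do not show in which cells a region was bound. The reproducible list, which passed the authors' irreproducible discovery rate (IDR) threshold, held 3909 regions in build ce11, which is the assembly WBcel235. Each region carries a signal from the authors' caller, and rank 1 is the strongest region of a list. The files give regions and not reads, so depth is unknown and no interval from depth can be given.

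A microRNA is cut from a hairpin in a longer primary transcript by Drosha and its partner Pasha, and then from the hairpin by Dicer. The mature strand guides an Argonaute protein to messenger RNAs, which it recognises mainly through the seed, the bases near its 5′ end. In worms lin-4 and let-7 are the founding examples, and both time the larval stages. GMEB-1 is the worm relative of the vertebrate GMEB proteins, SAND-domain factors that bind the glucocorticoid modulatory element. The annotated 5′ end of most miRNA genes is that of the hairpin, which is not a transcription start.

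The mature sequences below were read from the RefSeq WBcel235 genome at the positions annotated by Ensembl and are written 5′ to 3′ as RNA, with the seed (bases 2 to 8) in capitals. The mir-51 group is shown first because 5 of its 6 loci were marked, and mir-51 is the unmarked locus. Members of the mir-64 group follow, of which mir-63 and mir-66 were not marked. The marked mir-80, mir-58a, mir-75, mir-228 and mir-60, and then the unmarked let-7 and lin-4, complete the set.
mir-51, chrIV:11026074-11026096, minus strand: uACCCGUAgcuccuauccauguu
mir-52, chrIV:14034024-14034047, plus strand: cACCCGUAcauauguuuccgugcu
mir-53, chrIV:11027653-11027676, minus strand: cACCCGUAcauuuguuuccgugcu
mir-54, chrX:13145011-13145034, minus strand: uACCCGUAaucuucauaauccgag
mir-55, chrX:13144842-13144864, minus strand: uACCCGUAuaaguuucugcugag
mir-56, chrX:13144706-13144727, minus strand: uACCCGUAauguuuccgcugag
mir-229, chrIII:2172459-2172484, plus strand: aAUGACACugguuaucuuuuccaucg
mir-64, chrIII:2172869-2172891, plus strand: uAUGACACugaagcguuaccgaa
mir-66, chrIII:2173124-2173146, plus strand: cAUGACACugauuagggauguga
mir-63, chrX:17598785-17598808, minus strand: uAUGACACugaagcgaguuggaaa
mir-80, chrIII:8865285-8865307, minus strand: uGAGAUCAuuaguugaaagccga
mir-58a, chrIV:3233314-3233335, plus strand: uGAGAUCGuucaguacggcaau
mir-75, chrX:2372513-2372534, plus strand: uUAAAGCUaccaaccggcuuca
mir-228, chrIV:5562040-5562062, plus strand: aAUGGCACugcaugaauucacgg
mir-60, chrII:6328717-6328739, minus strand: uAUUAUGCacauuuucuaguuca
let-7, chrX:14744234-14744255, minus strand: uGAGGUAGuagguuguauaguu
lin-4, chrII:5902269-5902289, plus strand: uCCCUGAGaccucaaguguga

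The DNA around the summits is shown as stretches of 29 bases from the plus strand of the same genome, each within 50 bp of the summit it is named for. All the stretches shown hold a motif, so they do not represent every summit. Within 50 bp of other summits, such as those of mir-60, mir-53, mir-79 and mir-47, none of the motifs counted below was found. The stretches of mir-52, mir-75, mir-80, mir-228, mir-229 and let-7 hold GAGAGA or its reverse complement TCTCTC, in capitals. The summits of these loci lay outside every promoter of a protein-coding gene. The stretch of mir-54 holds ACGT, the core of the vertebrate glucocorticoid modulatory element. The stretch of mir-2207, whose summit lay in the promoter of a protein-coding gene, holds GCGCTC, the reverse complement of GAGCGC.
mir-52, chrIV:14033897-14033925: tTCTCTCgttctccttttcctctcttttc
mir-75, chrX:2372285-2372313: TCTCTCtgcacactccacattctctgctg
mir-80, chrIII:8865562-8865590: tagagagtttcGAGAGAcataaagaaaaa
mir-228, chrIV:5561792-5561820: tagagaaaaaaGAGAGAaatgggcggagc
mir-229, chrIII:2172090-2172118: tgcgtgtgtgtGAGAGAgtacGAGAGAag
let-7, chrX:14744757-14744785: ataggagGAGAGAGAGAgtggtcagtgca
mir-54, chrX:13145375-13145403: ccgtcttattgtACGTttaggggcggaga
mir-2207, chrII:11599925-11599953: ataatggtagtGCGCTCcattgagaacac

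Within 1000 bp, 33 of 261 miRNA loci were marked (12.6%), against 14.5% of 19973 protein-coding genes by the same rule. Within 500 bp there were 25 marked miRNA loci (9.58%), against 11.8% of protein-coding genes. At 200 bp the count was 11 loci (4.21%), against 6.48% of protein-coding genes. The share of miRNA loci was thus below that of coding genes in each window, by an amount that was not tested. Because neighbouring hairpins shared summits, the nearest upstream summits of the 33 loci were 29 distinct ones, and the loci are not independent of one another. A farther summit within 1000 bp of mir-52 is not among the 29. Among other classes of short RNA gene, tRNA genes were marked at 28.9% within 1000 bp (n = 612), snoRNA genes at 34.4% (n = 346) and snRNA genes at 20.9% (n = 129). Long intergenic RNA genes reached 9.79% (n = 194) and piRNA genes 2.1% (n = 15363). Of the chromosomes, III held 8 marked loci among 27 (29.6%), which rested on 6 summits, against 22.7% of the coding genes there. The other nuclear chromosomes ranged from 7.14% of miRNA loci on V, against 10.7% of coding genes, to 15.2% on I, against 19.2%.

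**Figure D1:**
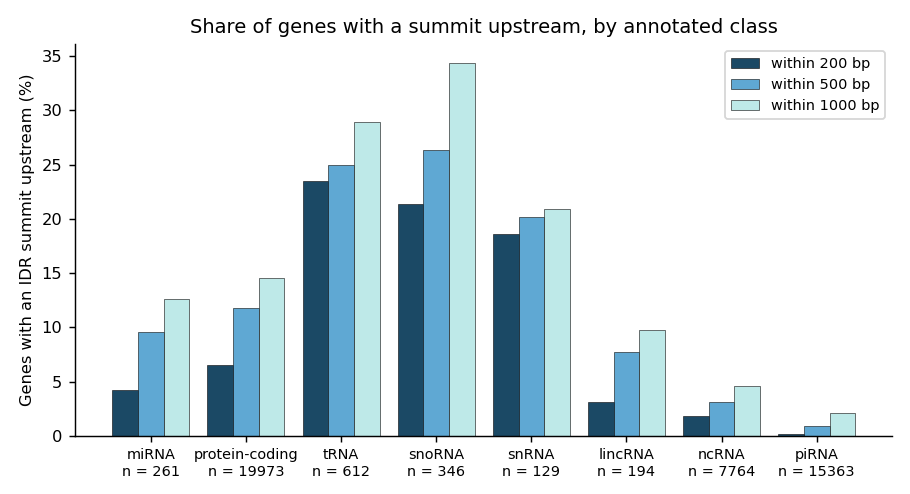
Share of genes with an IDR summit within 200, 500 or 1000 bp upstream of the annotated 5′ end (vertical axis, percent), by Ensembl class, with the number of genes under each name. The bars of miRNA genes end at 4.21%, 9.58% and 12.6%, each below that of protein-coding genes and those of tRNA, snoRNA and snRNA genes.

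By place in the genome, 106 loci lay inside a protein-coding gene, 152 overlapped none, and 3 overlapped a coding gene in part. Of the loci inside coding genes, 19 of 106 were marked within 1000 bp (17.9%), against 3.94% of other non-coding genes inside coding genes and 7.25% when piRNA genes were left out. Same-strand hosts held 14 marked loci among 74 (18.9%), and opposite-strand hosts 5 among 32 (15.6%). Of the intergenic loci, 14 of 152 were marked (9.21%), against 4.3% of other intergenic non-coding genes and 8.0% without piRNA genes. The order turned with the window, since at 200 bp the marked loci were 3 of those inside coding genes (2.83%) and 8 of the intergenic ones (5.26%). At 500 bp they were 12 (11.3%) and 13 (8.55%). Counting hairpins under 1000 bp apart on 1 strand as a single unit gave 15 of 92 units inside genes (16.3%) and 14 of 132 intergenic units (10.6%). The difference between loci inside genes and intergenic loci was not tested.

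By count, there were more pairs of a locus and a summit upstream of the 5′ ends than downstream, and the difference was not tested. A summit shared by neighbouring hairpins counts once for each. One near hairpins on opposite strands, as in F09A5.3, can count on both sides. From the 5′ end of intergenic loci there were 15 pairs of a locus and a summit within 1000 bp upstream and 2 within 1000 bp downstream. From 1000 to 2000 bp the pairs numbered 15 upstream and 8 downstream. For loci inside coding genes there were 19 pairs upstream and 10 downstream within 1000 bp. Measured from the 3′ end, a downstream window of 1000 bp held a summit for 13 of 261 loci (4.98%), and one of 200 bp for 0 loci. On either side of the 5′ end, the nearest summit lay at a median of 7739 bp over all 261 loci. Downstream counts and nearest distances were not taken for other genes. Whether the difference between the sides is particular to miRNA loci was therefore not tested.

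**Figure D2:**
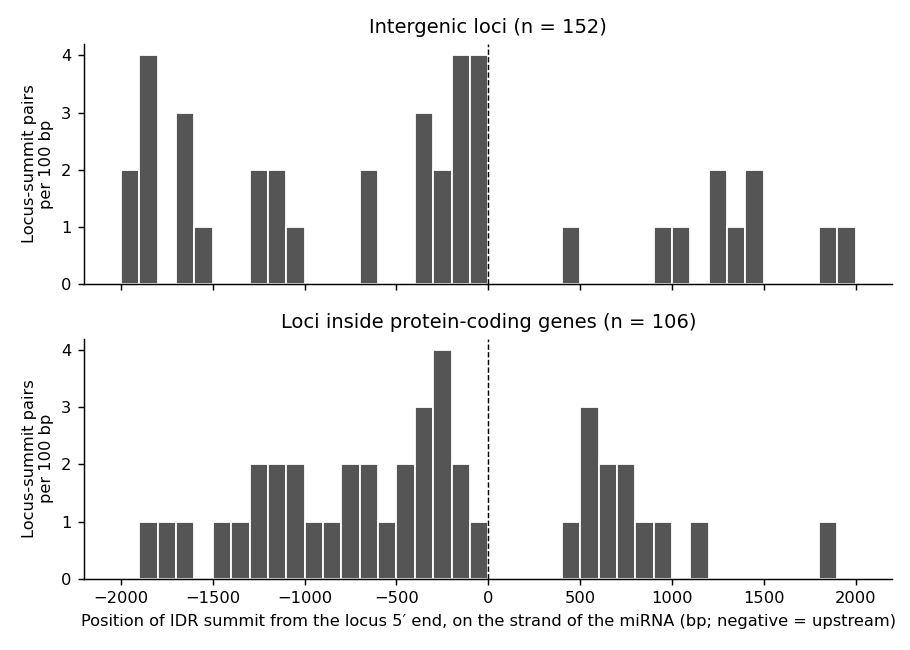
Number of locus-summit pairs in bins of 100 bp (vertical axis) by the position of the IDR summit from the 5′ end of the locus (horizontal axis, bp, negative upstream), for 152 intergenic loci above and 106 loci inside coding genes below. Within 1000 bp, intergenic loci had 15 pairs upstream and 2 downstream, and loci inside genes had 19 and 10.

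The thresholds fell at gaps of unequal size. At 200 bp the last marked locus was mir-79 at 198 bp and the next was mir-228 at 210 bp. At 500 bp mir-55 at 474 bp lay inside and mir-8210 at 562 bp outside. At 1000 bp mir-65 at 932 bp lay inside, and mir-353 at 1002 bp and mir-66 at 1038 bp lay just outside.

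A summit can also sit in the promoter of a coding gene, taken here as 1000 bp upstream to 200 bp downstream of any transcript start of that gene. Of the 33 marked loci, 20 had their nearest upstream summit outside every such promoter, namely 12 inside coding genes and 8 intergenic ones. In all IDR regions, 34.8% of summits lay outside coding promoters, against 16 of the 29 distinct nearest summits upstream of miRNA loci. These 16 had signals of 39.6 to 219 with a median of 57.7, against a median of 59.0 over all IDR regions outside coding promoters. The 13 in coding promoters had a median signal of 89.8, against 79.4 over all IDR regions in coding promoters.

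The 8 intergenic loci with such summits were mir-60, mir-52, mir-53, mir-75, mir-80, mir-79, mir-228 and mir-47. The nearest was that of mir-60 (chrII:6328702-6328799, minus strand), whose product acts in the intestine in the response to oxidative stress. Its summit lay 8 bp upstream of the hairpin and 2534 bp from the closest coding start, with a signal of 60.9 and rank 2278. Neither replicate's own list had a summit within 1000 bp upstream of mir-60, since the overlapping regions had theirs 215 bp away in replicate 1 and 41 bp away in replicate 2, past the 5′ end. The other 32 marked loci had an upstream summit in both relaxed lists. At mir-52 (chrIV:14034008-14034107, plus strand) 2 summits lay within 1000 bp upstream, the farther at 689 bp with a signal of 93.3. The nearer lay 61 bp upstream of mir-52 with a signal of 65.4, and the closest coding start was 9833 bp away. Its sister mir-53 (chrIV:11027593-11027691, minus strand), on the same chromosome but at another place, had a summit 98 bp upstream with a signal of 71.0. Both belong to the mir-51 family, whose members act together in development. At mir-75 (chrX:2372453-2372549, plus strand) and mir-79 (chrI:9332946-9333043, plus strand), which share a seed, the summits lay 118 bp and 198 bp upstream with signals of 42.6 and 39.6. The value of mir-79, at rank 3801, was near the end of the list.

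The remaining intergenic loci with a summit outside coding promoters were mir-80, mir-228 and mir-47. The summit of mir-80 (chrIII:8865270-8865367, minus strand), of the abundant mir-58 family that is related to bantam of *Drosophila*, lay 193 bp upstream with a signal of 84.3, and 11568 bp from a coding start. At mir-228 (chrIV:5562025-5562122, plus strand), which is expressed in glia, it lay 210 bp upstream with a signal of 65.7, and 10681 bp from a coding start. For mir-47 (chrX:13921250-13921346, plus strand) it lay 678 bp upstream with a signal of 52.2, and 3401 bp from a coding start.

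The 12 loci inside coding genes with a summit outside promoters rested on 8 summits. A summit in an intron of gcn-1, a gene of translational control, lay 382 bp upstream of mir-229 (chrIII:2172452-2172566, plus strand), 778 bp upstream of mir-64 and 932 bp upstream of mir-65. It had a signal of 92.9 and rank 1381, and the closest coding start, that of gcn-1 itself, was 20125 bp away. A summit on X in an intron of F09A5.3, which lies on the opposite strand, was 304 bp upstream of mir-54 (chrX:13144996-13145094, minus strand), 474 bp upstream of mir-55 and 611 bp upstream of mir-56. With a signal of 158 and rank 747 it was the second strongest of the 16, after that of mir-2214 (219, rank 511), which lay 56 bp upstream of its hairpin in an intron of B0361.11. The hairpin mir-55b occupies the same DNA as mir-55 on the other strand, and its own summit lay on the other side, 627 bp upstream with a signal of 46.6.

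The summit of mir-71 (chrI:9379927-9380020, minus strand), a miRNA known for extending lifespan, lay 231 bp upstream in an intron of ppfr-1, 9333 bp from the start of that gene, with a signal of 51.1. At mir-58a (chrIV:3233254-3233350, plus strand), among the most abundant worm miRNAs, it lay 421 bp upstream in an intron of Y67D8A.2 with a signal of 51.0. The last were mir-8210 in slc-25A29 at 562 bp and mir-243 in R08C7.12 at 770 bp, with signals of 54.5 and 43.7. The summit of mir-243 was 270 bp downstream of its host's start, just beyond the promoter window.

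Another 13 loci had their nearest summit in a coding promoter, so the same summit was assigned to a coding gene as well. Inside coding genes these were mir-2218a, mir-5595, mir-4920, mir-253, mir-2216, mir-4929 and mir-354, and in all 7 the promoter was that of the host. For mir-354 (chrI:14468382-14468491, minus strand), in an exon of the ribosomal protein gene rps-20, a summit of signal 455 and rank 183 lay 841 bp upstream, in the promoters of rps-20 and ekl-4. That of mir-5595, at 139 bp with a signal of 182, lay in the promoter of nurf-1, a chromatin remodelling gene on the other strand. The summit of mir-253 lay 45 bp downstream of the start of F44E7.5 and 261 bp upstream of the hairpin, with a signal of 90.0. Those of mir-4929 (E01G4.3), mir-4920 (sph-1), mir-2216 (gmps-1, a GMP synthase gene) and mir-2218a (W09G3.8 and maea-1) had signals of 51.5 to 89.8.

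The intergenic loci of this kind were mir-5549, mir-4932, mir-5551, mir-4936, mir-2207 and mir-2213. The strongest summit upstream of any miRNA locus was that of mir-5549 (chrIII:6971976-6972085, minus strand), 15 bp upstream, with a signal of 573 and rank 112. It lay 153 bp upstream of a start of rfc-4, a replication factor C gene, and also in the promoter of eef-1A.1, a translation elongation factor gene. Next among the intergenic loci was mir-2207 (chrII:11600300-11600383, plus strand), 352 bp from a summit with a signal of 359.6 and rank 265 in the promoter of npp-5, a nuclear pore gene. The summit of mir-2213 had a signal of 193 and lay in the promoters of panl-2 and F31E3.12. Those of mir-5551 (nhr-97, a nuclear hormone receptor gene), mir-4932 (smn-1 and klp-16) and mir-4936 (nduf-9) had signals of 44.9 to 73.5.

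**Figure D3:**
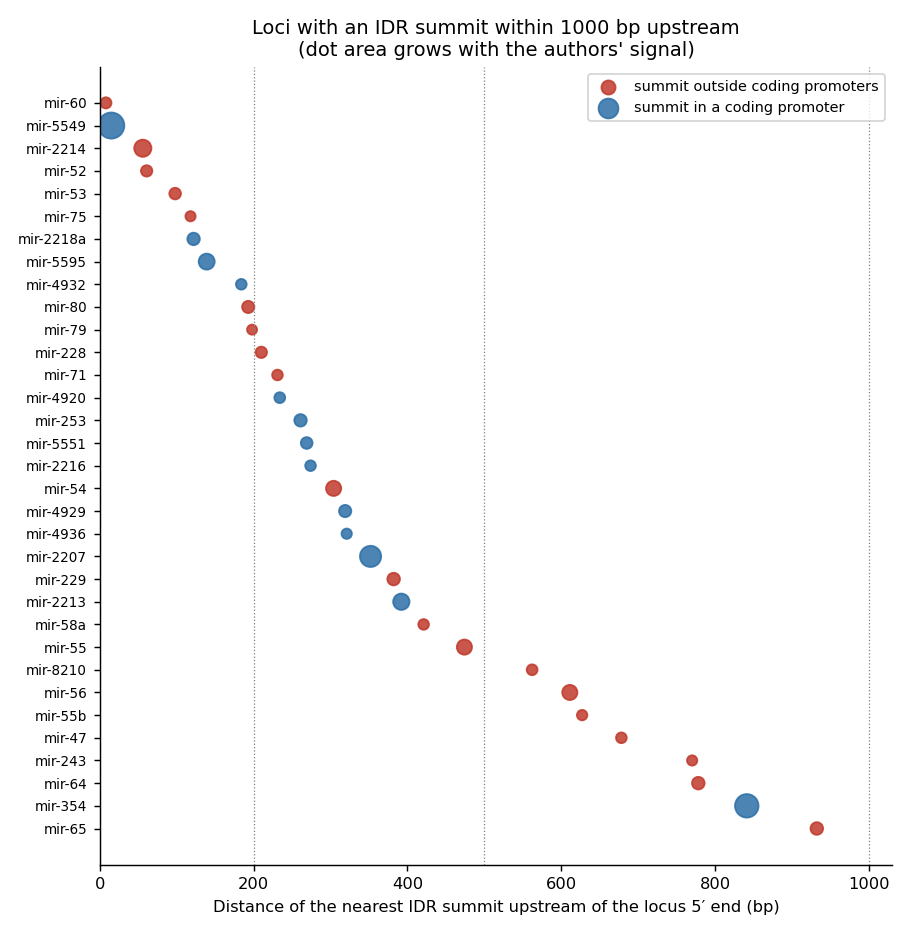
Distance in bp from the nearest upstream IDR summit to the 5′ end of each of the 33 marked loci (horizontal axis; dotted lines at 200, 500 and 1000 bp), with dot area growing with the authors' signal. The largest dots, mir-5549 (573), mir-354 (455) and mir-2207 (359.6), lie in coding promoters, in blue, and the 20 loci in red have summits outside them, from 8 bp at mir-60 to 932 bp at mir-65.

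The 2 replicates were compared by rank, since the signals of their relaxed lists are on different scales, with maxima of 191 in replicate 1 and 1996 in replicate 2. A relaxed list deliberately includes background regions. For each of the 29 summits upstream of miRNA loci, both relaxed lists held a region that overlapped the IDR region. Among all IDR regions, 83.8% overlapped a region of the relaxed list of replicate 1, and the share for replicate 2 is not given here. Of the 29 summits, 22 reached the top 3909 regions of replicate 1 (75.9%), against 55.0% of all IDR regions. In replicate 2 it was 26 (89.7%), against 93.8% of all IDR regions. In both replicates it was 19 (65.5%), against 51.2%. An overlapping region can have its own summit elsewhere. Where a top region's summit had to lie within 100 bp of the IDR summit, a rule chosen after the values were seen, the counts were 18 in replicate 1 (62.1%, against 49.0% of all IDR summits), 26 in replicate 2 (89.7%, against 93.3%) and 15 in both (51.7%, against 45.1%). The summits that passed replicate 1 by overlap alone were those of mir-52, mir-80, mir-228 and mir-229, where the overlapping region's summit was 115 to 279 bp away. Within 100 bp of the mir-80 summit replicate 1 had only a region of signal 2.91 at rank 18739, while replicate 2 had a signal of 80.5 at rank 1433. At mir-228 it had a signal of 5.17 at rank 6797, and at mir-52 and mir-229 none.

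Single summits differed widely in rank between the replicates. At mir-54, mir-55 and mir-56 the region had a signal of 44.0 and rank 62 in replicate 1, and a signal of 114 and rank 968 in replicate 2. At mir-5549 it had a signal of 38.2 and rank 86 in replicate 1, and 534 and rank 115 in replicate 2. Both were high in both lists. At mir-2207 the signal was 2.52 at rank 22651 in replicate 1 and 356 at rank 250 in replicate 2, so it was high in replicate 2 and low in replicate 1. That of mir-75 had 3.03 at rank 17604 in replicate 1 and 42.3 at rank 3135 in replicate 2. The other summits below the top of replicate 1 were those of mir-4920, mir-2216, mir-4932, mir-2213 and mir-60. Below the top of replicate 2 were those of mir-58a, mir-55b and mir-79, and mir-58a had rank 483 in replicate 1 and rank 4132 in replicate 2. At mir-53 it was 17.0 at rank 675 in replicate 1 and 52.3 at rank 2394 in replicate 2, and this summit was in the top of both lists.

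**Figure D4:**
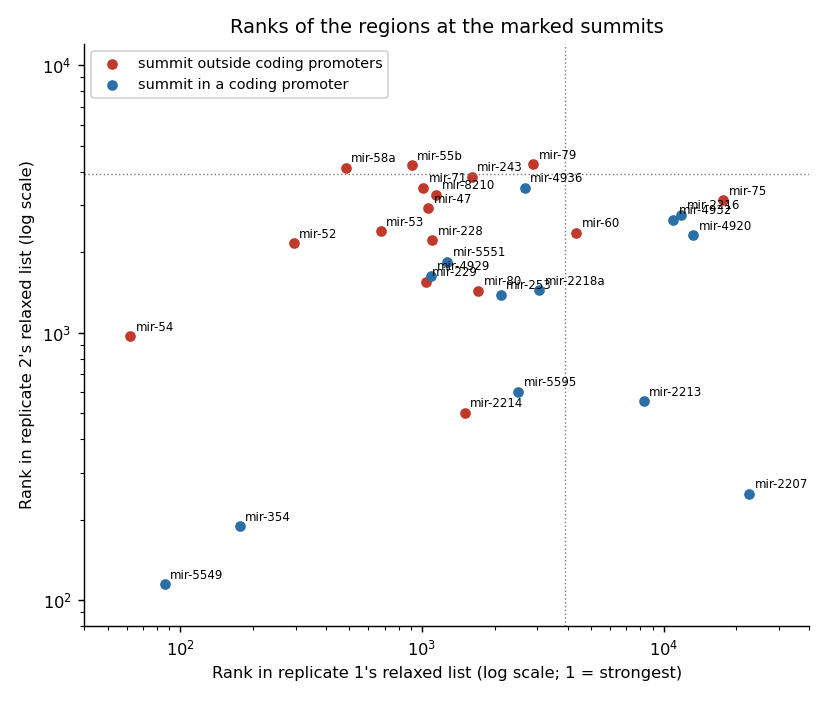
Rank of the best region overlapping the IDR region of each of the 29 distinct summits in the relaxed list of replicate 1 (horizontal axis) and of replicate 2 (vertical axis), both on log scales with 1 the strongest; a shared summit carries the name of its nearest locus and dotted lines mark rank 3909. Left of and below these lines lie 19 summits, with mir-54 and mir-5549 at the left, while mir-2207 stands at the lower right with ranks 22651 and 250.

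let-7 was not marked by the rule, although a summit lay in its gene model. Ensembl gives the let-7 gene as a primary transcript of 1732 nt (chrX:14743590-14745321, minus strand) that overlaps the coding gene C05G5.7 in part, and the nearest summit upstream of that model was 1856 bp away with a signal of 119.5. A further IDR summit lay at chrX:14744793, 528 bp downstream of the 5′ end of the model, in a region of signal 42.4 and rank 3546. It was 522 bp upstream of the 99-nt hairpin, and 313 and 497 bp upstream of the shorter annotated primary transcripts of 891 and 707 nt. The closest coding start was that of C05G5.7, 1013 bp away, just beyond the promoter window. The overlapping region had a signal of 3.46 and rank 14359 in replicate 1, with its own summit 186 bp away, and a signal of 35.4 and rank 3889 in replicate 2, so it was near the end of the IDR list and low in replicate 1. With every window measured from the annotated hairpin instead, a choice made after the values were seen, 34 loci were marked within 1000 bp, with let-7 added and none lost.

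lin-4 (chrII:5902254-5902347, plus strand), in an intron of F59G1.4, was not marked. Its nearest summit lay 11926 bp downstream with a signal of 44.5, the nearest upstream was 57230 bp away, and no region of any relaxed list lay within 1000 bp upstream. Its sister mir-237, with the same seed, had its nearest summit 2665 bp downstream. The let-7 relatives mir-48, mir-241 and mir-84, which act together at the passage from the second to the third larval stage, were 8572, 10346 and 34106 bp from any summit. For lsy-6, which sets the left-right difference of a pair of taste neurons, the distance was 14399 bp, and for the muscle miRNA mir-1 it was 8537 bp. The nearest summit of mir-34, known for its part in stress responses, lay 1831 bp upstream, and that of mir-124, a miRNA of sensory neurons, 41899 bp downstream. Replicate 1 alone placed a region among its top 3909 at mir-34 (rank 2959, 61 bp upstream) and mir-124 (rank 2713, 217 bp), while replicate 2 had rank 6880 at mir-34 and no region at mir-124.

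Loci that share a seed were described together, a grouping made after the values were seen. In the mir-51 group, 5 of 6 loci were marked, with 3 nearest summits in separate places, and a second summit lay upstream of mir-52. The unmarked mir-51 lay 1677 bp from the summit that marks mir-53. Of the mir-64 group 3 of 5 loci were marked, all through 1 summit. The nearest upstream summit of mir-66 was the same one, at 1038 bp, and that of mir-63 lay at 1510 bp. Both loci with the seed of mir-75 and mir-79 were marked. In the mir-58 group, defined by bases 2 to 7, 2 of 7 loci were marked, namely mir-58a and mir-80, while mir-82, mir-2209a, mir-81, mir-58c and mir-58b lay 4571 to 87360 bp from an upstream summit. None of the 7 loci of the let-7 group, also defined by bases 2 to 7, was marked, and 5 of these share the full seed. None of the 8 of the mir-35 group was marked. The embryonic mir-35 to mir-41 cluster had 1 summit of signal 199 upstream, 2576 bp from mir-35 and 3276 bp from mir-41.

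**Figure D5:**
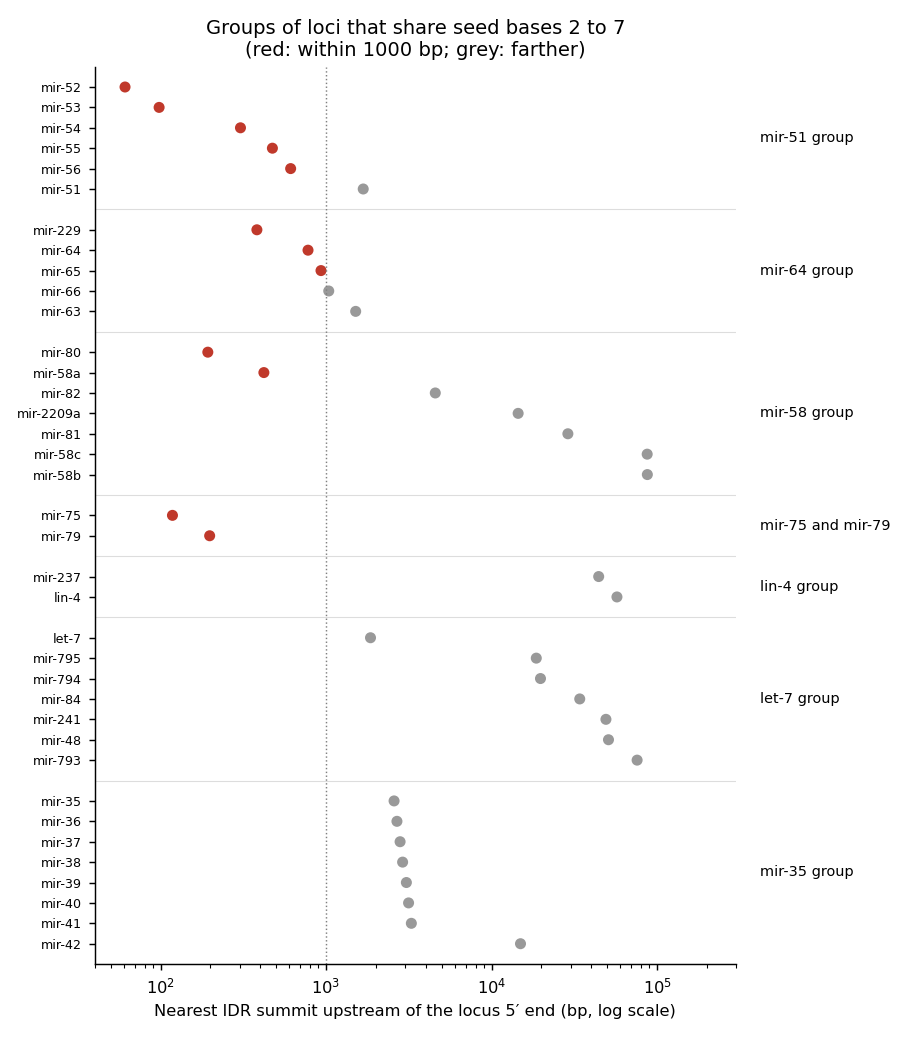
Distance of the nearest upstream IDR summit (horizontal axis, bp, log scale) for each locus of 7 groups that share bases 2 to 7 of a mature arm, with loci within 1000 bp in red. The mir-51 group has 5 of 6 loci to the left of the dotted line at 1000 bp, and the let-7, lin-4 and mir-35 groups have none.

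Of the 33 marked loci, 14 shared the seed of at least 1 arm with another locus (42.4%), against 41.9% of the 260 loci with annotated mature arms. The 14 were all among the 20 loci whose summit lay outside coding promoters (70.0%), and 0 of the 13 with a summit in a coding promoter shared a seed. Several of the 14 share a summit, so this is a description of these loci, chosen after the values were seen, and it was not tested. The 0 of 13 holds for the full seed only. By the shorter match of bases 2 to 7, mir-2213, whose summit lay in a coding promoter, shared GGCGGA with mir-56. By that match mir-58a, whose summit lay outside coding promoters, also shared its bases with the mir-58 group.

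Motifs were counted on both strands in windows of 101 bp around the summits. GAGAGA was in 10 of the 29 windows upstream of miRNA loci (34.5%), against 22.3% of all 3909 IDR windows. Outside coding promoters it was in 6 of 16 (37.5%), against 27.1% of all IDR windows outside promoters. These 6 were at mir-52, mir-71, mir-75, mir-80, mir-228 and mir-229. ACGT was in 7 of 29 (24.1%), against 26.1%, and GAGCGC in 4 of 29 (13.8%), against 12.4%. ACGCGC was in 2 of 29 (6.9%), against 12.3%, and ACGCAG in 1 of 29 (3.45%), against 14.1%. ACGCGC shares its first letters with ACGCAG and its last with GAGCGC, so a single stretch can count for more than 1 of them. The median GC content of the windows was 48.5% upstream of miRNA loci and 43.6% over all IDR windows, and its part in these shares was not tested. A match describes the letters in the window and is not a shown binding site.

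Genes that make or carry out miRNA function were described from a list of 22 names, of which 20 matched a gene. Of these, 11 had an IDR summit in the promoter (55.0%), against 16.4% of all protein-coding genes. The highest signals were at vig-1, a component of the RNA-induced silencing complex (749.7, rank 55), and pash-1, the Pasha partner of Drosha (748, rank 59). The RNA helicase gene cgh-1 (454) and the cofactor gene nhl-2 (360.0) followed, with summits 801 and 877 bp upstream of a transcript start. The Argonaute genes alg-1 and alg-2, which bind most worm miRNAs, had signals of 46.4 and 52.3. Those of ain-1, a GW182 relative, tsn-1, ccf-1, a deadenylase gene, and dcap-1, a decapping gene, ran from 39.8 to 99.99. Neither drsh-1 (Drosha) nor dcr-1 (Dicer) had a summit there. With a promoter of 500 bp upstream and 100 bp downstream the count was 7 of 20 genes (35.0%), against 13.3% of all protein-coding genes. At lin-28, whose product blocks let-7 processing and whose messenger is a target of lin-4 and let-7, the signal was 107 at rank 1186. Among 7 known targets of lin-4 and let-7, 2 were bound (28.6%), lin-28 and lin-14, and the summit of lin-14 was near the end of the list with a signal of 38.7 and rank 3902.

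The 228 unmarked loci lay at a median of 9284.5 bp from the nearest IDR summit, and 165 of them (72.4%) lay over 5000 bp away. Such distances were not measured for other genes, so they have no background. Some unmarked loci had a weaker region upstream. For the relaxed lists and the replicates' top regions, the share over other genes was not counted, so the counts below have no background. A region of the relaxed list called on both replicates lay within 1000 bp upstream of 96 of 261 loci (36.8%), 63 of them unmarked. In the list of replicate 1 it was 108 loci, and in that of replicate 2 it was 98. Taking the top 3909 regions of each replicate, 41 loci were marked in replicate 1, 33 in replicate 2 and 23 in both. Of the 23, 22 were marked by the IDR list too, and the other was mir-353. No other factor and no input signal were analysed here, so whether other factors mark these loci equally was not tested.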

How the data were processed

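Per the deposited readme, the authors called a relaxed list of regions from each replicate with a control, a pooled list from both, and the IDR list from these. The sources used here do not give the caller, aligner, IDR threshold or depth. The deposited signal and −log10 q value of each region are the authors' own. The −log10 q reached a ceiling of 4.09 in the IDR list, so regions were ranked by signal within each list. The ce10 lists were not used. The antibody label names gmeb-1 and the description eGFP-gmeb-1.

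Summits were the region start plus the deposited offset, in 1-based WBcel235 positions, and 0 regions ended beyond a chromosome. The loci had 258 distinct names and lengths of 52 to 1732 nt (median 95). The let-7 symbol came from RefSeq by WormBase identifier. Inside means wholly within the span of a protein-coding gene. A replicate's region is the best-ranked one overlapping the IDR region by at least 1 bp. Counts carry no test, since there was 1 group and loci share summits.

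The members, gene lists and motifs were chosen with earlier results of these data known. Named miRNAs were those marked within 500 bp, beyond that the intergenic ones and those among the 15 of highest signal, and well-studied ones. mir-8210, mir-55b, mir-243, mir-353 and the unmarked relatives by seed were added after their values were seen. Alternatives were the 1954 strongest IDR regions, regions in both relaxed lists, each replicate's top 3909 regions, any overlap with the window, summits in the hairpin, a downstream window, clusters as units and a narrower promoter. The sequence of 1 member of the mir-64 group is not reported here. The search of the upstream windows was checked on simulated summits placed at known distances from annotated miRNA loci. Python 3.11.15, numpy 2.4.6, pandas 2.3.3 and matplotlib 3.10.9 were used.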

Additional observations from a re-analysis of the deposited data

How the results depend on the processing

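Values are given for loci marked within 200, 500 and 1000 bp, then within 1000 bp inside genes and intergenic (11, 25, 33, 19 and 14). Of 52 alternative counts, 35 were within 1.5 times the main count and 17 were not. The 52 also include alternatives for the gene lists and for the replicate values of the marked summits. The 1954 strongest IDR regions gave 6, 14, 19, 12 and 7. A downstream window gave 0, 5, 13, 10 and 3. Any part of a region within 200 bp gave 18 loci. Without either replicate the counts ran from 9 to 10, from 24 to 26, from 33 to 41, from 18 to 24 and from 15 to 17. Added after seeing the data, regions among the top of both replicates gave 7 within 200 bp, 16 within 500 bp and 23 within 1000 bp. Leaving out summits in coding promoters, also added then, gave 20 within 1000 bp, 12 inside genes and 8 intergenic. The narrower promoter gave 7 bound machinery genes and 2 bound targets. No paired analysis was possible because both replicates belong to a single group. Depth is unknown, so whether unmarked loci lacked binding or reads cannot be told apart.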
